A study of Bubalus bubalis with 12 samples.

Results

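Expression of 9 acid-sensing genes was described in the ruminal wall of Italian Mediterranean dairy buffaloes (Bubalus bubalis). They were TMEM206, the acid-sensing ion channels ASIC1 and ASIC3, the proton-sensing receptors GPR4 and GPR65, and the two-pore potassium channels KCNK10, KCNK1, KCNK5 and KCNK6. The members were found by their symbols among the 34037 genes of the deposited table. The set was chosen by the measured values of these same animals, since the difference between the diets was known for its members when it was drawn up. For this reason that difference is given below as a description, and nothing is supported with it.

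The control group of 6 buffaloes received a total mixed ration (TMR). The treated group of 6 buffaloes received TMR in which green ryegrass made up 30% of the diet. All animals were adult dairy cows with a mean age of 8.2 years, the trial lasted 60 days after 14 days of adaptation, and each animal gave 1 library of total RNA from frozen rumen wall. Each animal had between 10531541 and 12948372 fragments counted on genes. Values are FPKM, the fragments of a gene per length of that gene and per depth of the library, so that levels of different genes are compared per length. The pieces of wall were rich in epithelium: the summed FPKM of 8 squamous epithelial markers, among them the basal keratin KRT5, lay between 3352 and 6031, and that of 8 smooth muscle markers between 4.64 and 33.2. No pair of libraries was alike within sampling noise, as the mean chi-square per gene was 17.1 or more in all 66 pairs of animals.

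Fermentation in the rumen gives short-chain fatty acids, and the stratified squamous epithelium of the wall faces contents that turn acid after a meal. Cells read protons at their surface in several ways. TMEM206, now also called PACC1, forms a chloride channel that opens in strong acid. ASIC channels are trimers of the degenerin family that let sodium in when the outside turns acid. GPR4 and GPR65 are G protein-coupled receptors whose histidines take up protons and which raise cyclic AMP, and they are best known from endothelium and leukocytes, respectively. Two-pore potassium channels carry the background potassium current that holds the membrane potential, and protons gate several of them: KCNK5 (TASK-2) is closed by acid outside the cell, KCNK10 (TREK-2) is opened by stretch, fatty acids and acid inside the cell, and KCNK1 (TWIK-1) and KCNK6 (TWIK-2) are also proton-sensitive.

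The study designed an rt-qPCR primer pair for 1 of the 9 genes, KCNK10. It is printed here because it is the sequence that the study's second assay of a member used. The primers are given 5′ to 3′ in lower case, with no base set apart. The rt-qPCR values were not analysed here, and the place of the primers in the transcript was not looked up.
KCNK10_Fw: tggagaccaacttggaaccat
KCNK10_Rv: ccgtccacccctcaatgtat
The forward primer has 21 bases, of which 10 are G or C, and the reverse primer has 20 bases, of which 11 are G or C.

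The 9 genes covered a wide range of levels, and 6 of them were above 0 in all 12 animals. KCNK5 was the highest, with a median of 47.4 FPKM, which was above the medians of 94.6% of the 22972 genes detected in at least 1 animal. KCNK6 followed at 11.4 FPKM, and TMEM206 and KCNK1 came next at 2.90 and 2.38 FPKM. KCNK10 stood at 0.837 FPKM and ASIC1 at 0.332 FPKM. The receptor GPR65 had a median of 0.0858 FPKM, and the medians of GPR4 and ASIC3 were 0. The 4 potassium channels and TMEM206 thus all lay above the proton-gated sodium channels and the proton-sensing receptors.

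Neighbours in this order were compared within animals with a two-sided exact permutation test over all sign changes of the 12 log2 differences, adjusted over 8 pairs. KCNK5 was above KCNK6 in 12 of 12 animals, with a mean log2 difference of 1.86 ± 0.31 (SD, n = 12) and an adjusted p = 0.000977 in the exact test. KCNK6 was above TMEM206 in 12 of 12 animals, by 2.11 ± 0.51 on the log2 scale. TMEM206 and KCNK1 could not be told apart, since TMEM206 was the higher one in 8 of 12 animals and the mean log2 difference was 0.13 ± 0.56 (adjusted p = 0.418, exact permutation test). KCNK1 was above KCNK10 in 12 of 12 animals, and KCNK10 was above ASIC1 in 11 of 12. The remaining pair without a difference was GPR4 and ASIC3, both near 0 (adjusted p = 0.357, exact permutation test). In all, 6 of the 8 neighbouring pairs differed, in an order that was set on the same animals.

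**Figure D1:**
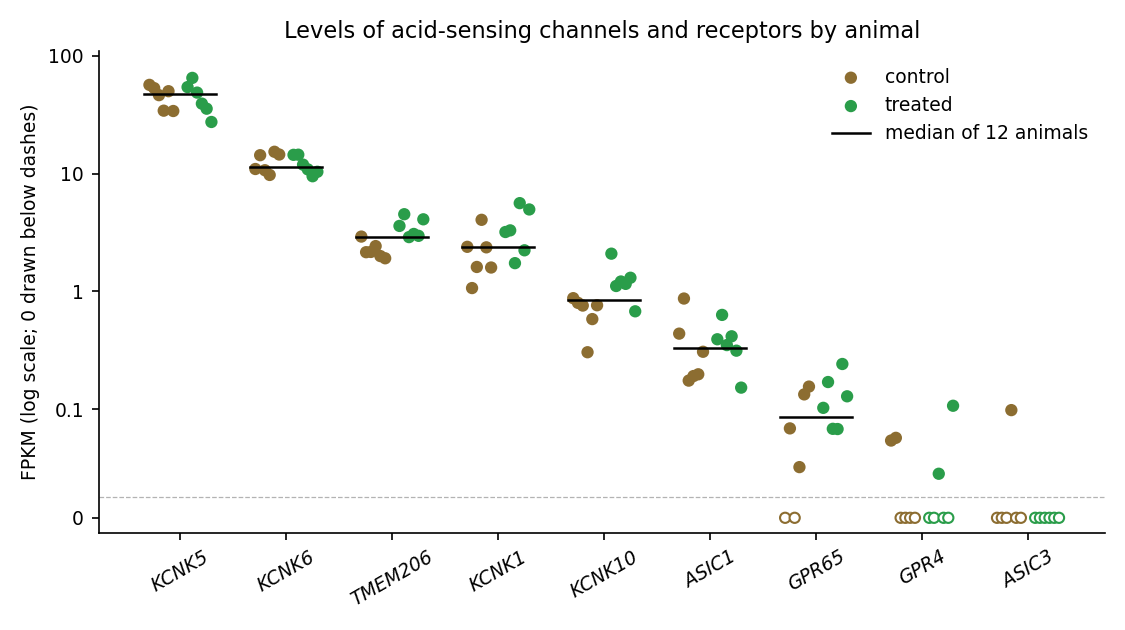
FPKM of the 9 genes in each of the 6 control and 6 treated animals, on a log axis, with animals at 0 drawn as open circles below the dashed line. The black line is the median of the 12 animals, which falls from 47.4 FPKM in KCNK5 to 0.0858 FPKM in GPR65, and GPR4 and ASIC3 are at 0 in most animals.

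Among the two-pore potassium channels, KCNK5 dominated. The table held 15 KCNK genes, and their summed FPKM lay between 52.7 and 91.6 per animal. KCNK5 made up a median of 62.7% of this sum, with a range of 51.9% to 72.1%, and KCNK6 made up 16.6%, with a range of 13.9% to 23.3%. The 4 KCNK members together held between 81.6% and 91.3% of the sum. The largest share outside the members was that of KCNK7, at 11.9%, a TWIK relative for which no channel current of its own is known. KCNK1 made up 3.32% and KCNK10 1.22%.

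KCNK9 (TASK-3), a channel closed by acid outside the cell, was above 0 in all 12 animals, with a median of 0.965 FPKM and 14 to 61 reads, and made up 1.33% of the sum. Each of the remaining 9 KCNK genes had at most 7 reads in an animal, with the lowest number that fits taken for genes above 0 in 1 animal. KCNK15, KCNK16 and KCNK18 were listed at 0 in all animals. KCNK2 (TREK-1), the closest relative of KCNK10, had at most 2 reads in an animal. In the reference annotation of another buffalo assembly, NDDB_SH_1, in which all 9 members were matched by gene ID, KCNK17 is the protein-coding neighbour of KCNK5 on one side. KCNK17 was above 0 in 1 animal only, at 0.0368 FPKM, beside 1454 to 3255 reads per animal for KCNK5. That value is 1 read if the shortest length that fits is the counted one. In the same annotation KCNK10 and GPR65 lie side by side, with no protein-coding gene and 1 non-coding gene between them.

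**Figure D2:**
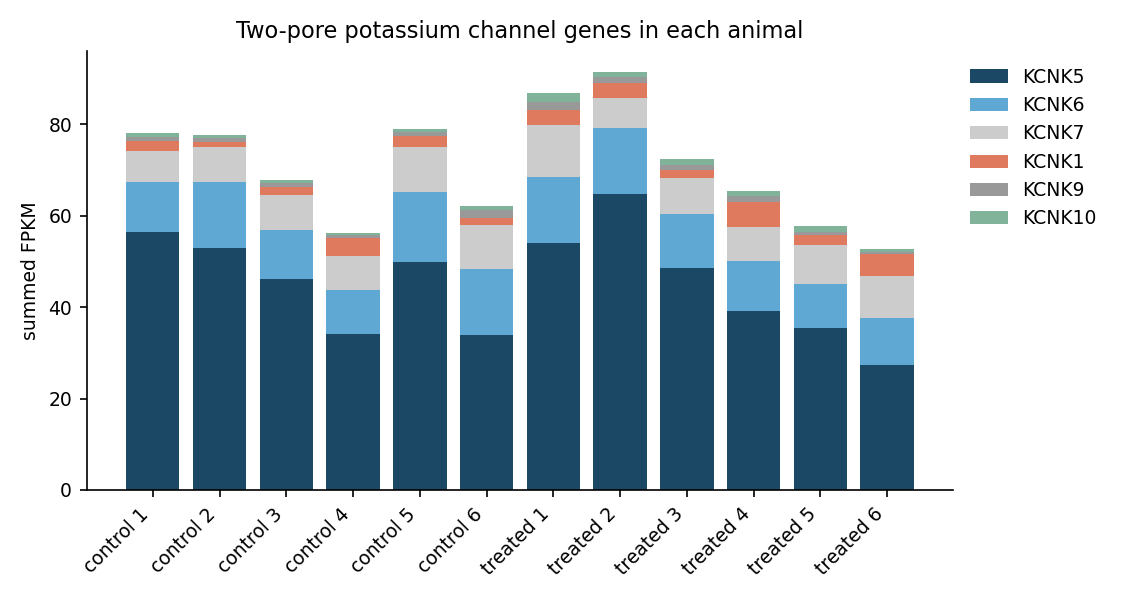
Summed FPKM of the 6 highest two-pore potassium channel genes in each animal, stacked by gene. KCNK5 forms the largest part of every bar, between 51.9% and 72.1% of the sum over all 15 KCNK genes, and the bars of both groups overlap in height.

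The treated group was then compared with the control group. Of 16450 genes tested with limma, 0 (0.0%) passed an adjusted p below 0.05, and the smallest adjusted p was 0.9996. At an unadjusted p below 0.05 there were 301 genes (1.83%), of which 168 (1.02%) were higher in the treated group. The groups did not overlap in 11 genes (0.0669%). Of the 9 members 7 were tested, 0 passed the adjusted threshold, 2 had an unadjusted p below 0.05 (TMEM206 and KCNK10, both higher in the treated group) and 0 had groups that did not overlap. Since this contrast was known when the genes were chosen, nothing is read from these counts. The mean log2 FPKM was higher in the treated group for 5 of the 7 members tested and for 50.3% of all genes tested. The 7 include GPR65, which met the filter with 4 treated and 2 control animals, and without it the mean was higher for 4 of 6. The median log2 difference was 0.41 over these 6 members and 0.0016 over all genes tested.

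TMEM206, the proton-activated chloride channel, ranged in control animals from 1.91 to 2.92 FPKM with a median of 2.16, and in treated animals from 2.89 to 4.52 FPKM with a median of 3.33. The groups overlapped in a single place: control animal 1, at 2.92 FPKM, was just above treated animal 3, at 2.89 FPKM, and the other 5 treated animals were above every control animal. Of all genes tested, 63 (0.383%) had at least 5 treated animals above every control animal. The means were 2.26 ± 0.367 FPKM in the control group and 3.52 ± 0.669 FPKM in the treated group (SD, n = 6 each). The log2 difference was 0.63 (SE 0.17), with an adjusted p = 0.9996 in limma over all genes. Each value rested on 51 to 138 reads. TMEM206 also had the smallest within-group spread of the members, with a within-group SD of 0.24 on the log2 scale, against 0.15 from counting alone and a median of 0.45 over all genes tested.

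KCNK10, the stretch- and acid-opened potassium channel, ranged from 0.305 to 0.876 FPKM in control animals, with a median of 0.760. In treated animals it ranged from 0.678 to 2.09 FPKM, with a median of 1.19. Again the values of 5 treated animals exceeded the highest control value, while treated animal 6, at 0.678 FPKM, lay within the control range. The highest value belonged to treated animal 1 and the lowest to control animal 4. The means were 0.680 ± 0.208 and 1.26 ± 0.461 FPKM (SD, n = 6 each), and the log2 difference was 0.88 (SE 0.32, adjusted p = 0.9996 in limma). Its share of the KCNK sum was between 0.542% and 1.23% in control animals and between 1.21% and 2.40% in treated animals. KCNK10 was read with 13 to 84 reads per animal, and its within-group SD was 0.53 on the log2 scale.

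KCNK1, the TWIK-1 channel, was the third member with a higher mean in the treated group, but its groups overlapped widely. It ranged from 1.07 to 4.05 FPKM with a median of 1.99 in control animals, and from 1.74 to 5.61 FPKM with a median of 3.24 in treated animals. The log2 difference was 0.69 (SE 0.35, adjusted p = 0.9996 in limma), close in size to that of TMEM206, and the SE was larger. Control animal 4 was above 4 of the 6 treated animals. The within-group SD of 0.65 on the log2 scale was well above the 0.17 expected from counting.

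For the abundant potassium channels KCNK5 and KCNK6 the control and treated values overlapped over most of their range. KCNK5, the acid-closed TASK-2 channel, ranged from 33.9 to 56.5 FPKM with a median of 48.1 in control animals and from 27.4 to 64.7 FPKM with a median of 43.9 in treated animals, so that the treated animals held both the highest and the lowest value. Its log2 difference was -0.05 (SE 0.21), and its direction turned when control animal 1 (0.02), treated animal 5 (0.0057) or treated animal 6 (0.08) was left out. KCNK6, the TWIK-2 channel, ranged from 9.72 to 15.3 FPKM in control animals and from 9.48 to 14.4 FPKM in treated animals, with medians of 12.6 and 11.4. Its log2 difference was -0.07 (SE 0.15), and it lay between -0.01, without treated animal 5, and -0.14, without control animal 4. Counting alone would give SDs of 0.03 and 0.05 on the log2 scale for these genes, and the within-group SDs were 0.39 and 0.27.

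ASIC1, a proton-gated sodium channel, ranged from 0.175 to 0.870 FPKM with a median of 0.253 in control animals and from 0.153 to 0.632 FPKM with a median of 0.371 in treated animals. The highest value was that of control animal 2 and the lowest that of treated animal 6. The log2 difference was 0.18 (SE 0.47), and it became 0.48 without control animal 2 and 0.02 without treated animal 2. The gene had 12 to 64 reads per animal. ASIC3, the other member of this family, was above 0 in 1 animal, control animal 4, at 0.0983 FPKM. A count of 0 allows up to 3 reads, so the absence of ASIC3 was not shown at this depth. If the counted length is 800 bases, 3 reads are 0.290 to 0.356 FPKM of ASIC3 in these libraries. How many reads the value of control animal 4 stands for could not be settled, because a gene seen in 1 animal gives no second value to compare; it is 1 read if the counted length is 800 bases.

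The proton-sensing receptors were at or near the floor of 3 reads, and no fold is given for them. GPR65, the receptor of leukocytes, had 0, 0, 1, 2, 4 and 4 reads in the control animals, 11 in all, and 2, 2, 3, 4, 5 and 7 reads in the treated animals, 23 in all. Of the 12 animals, 7 had 3 reads or fewer, and 3 reads stand for 0.0950 to 0.117 FPKM. GPR4, the receptor of endothelium, was above 0 in 4 animals. It had 2 reads in each of control animals 1 and 2, 1 read in treated animal 3 and 4 reads in treated animal 6. GPR4 and ASIC3 were below the filter and were not tested. The fitted log2 difference of GPR65 was 1.52 (SE 0.85, adjusted p = 0.9996 in limma), a value that depends on the pseudocount. A difference between the diets was not detectable for these 3 genes at this depth.

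**Figure D3:**
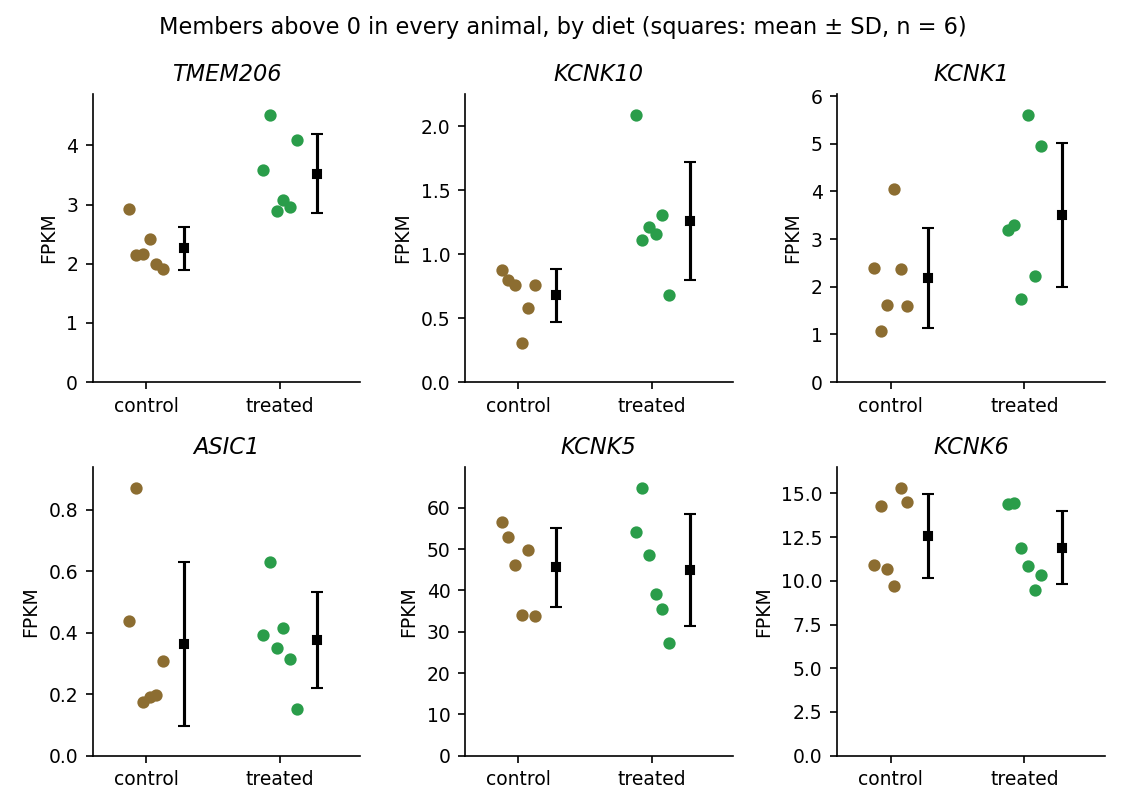
FPKM of the 6 members above 0 in every animal, in control and treated animals, with each animal as a point and the mean ± SD (n = 6) as a black square with its bar. In TMEM206 and KCNK10, 5 green points lie higher than the highest brown point, and the points of the other 4 genes overlap widely.

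Smooth muscle markers were lower in many treated animals, and their values are set beside those of TMEM206 and KCNK10. Because these are bulk samples, fewer cells of a type and less RNA per cell cannot be told apart. The summed FPKM of the 8 smooth muscle markers was 13.8 to 33.2 in control animals, with a median of 23.6, and 4.64 to 24.5 in treated animals, with a median of 12.01. All 8 markers, among them the muscle myosin MYH11 and desmin (DES), had a lower mean in the treated group, with a median log2 difference of -0.97. Of the 8, 3 had an unadjusted p below 0.05 while 0 passed the adjusted threshold in limma. Over all 16450 genes tested, 301 (1.83%) had an unadjusted p below 0.05, and 133 of these were lower in the treated group. The defining markers were present at a low level, with a median of 1.84 FPKM for MYH11. All 6 fibroblast markers also had a lower mean in the treated group, with a median log2 difference of -0.66, and their sums ran from 40.8 to 258.5 FPKM in control animals and from 17.5 to 171.8 FPKM in treated animals. With the smooth muscle sum as a covariate, the log2 difference was 0.51 (SE 0.21) for TMEM206, 0.92 (SE 0.40) for KCNK10 and 0.65 (SE 0.44) for KCNK1. It was -0.23 (SE 0.24) for KCNK5, -0.24 (SE 0.18) for KCNK6 and 0.06 (SE 0.58) for ASIC1, further from 0 than without the covariate for KCNK5 and KCNK6 and nearer to 0 for ASIC1.

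**Figure D4:**
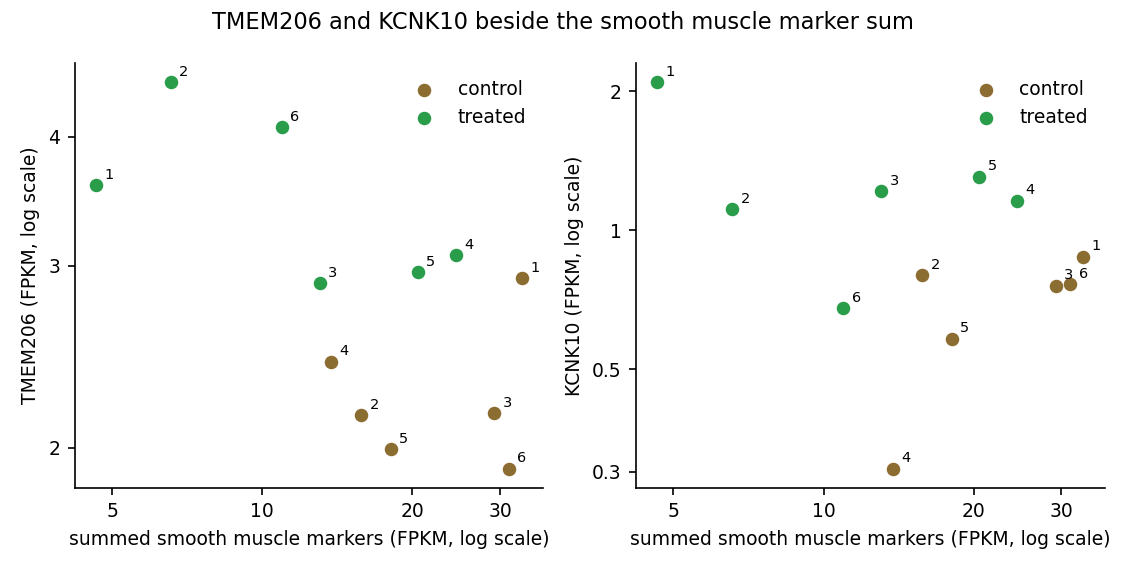
FPKM of TMEM206 (left) and KCNK10 (right) against the summed FPKM of 8 smooth muscle markers, both axes on a log scale, with each point an animal labelled by its number in its group. Treated animals 1 and 2 have the lowest marker sums, 4.64 and 6.56 FPKM, and control animal 1 has the highest, 33.2 FPKM.

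The 9 members were correlated with the marker sums of 6 cell types over the 12 animals, on the log2 scale, with permutation p-values adjusted over 54 relations. None of the 54 passed an adjusted p below 0.05, and 3 of them had the smallest adjusted p, 0.457. TMEM206 fell with the smooth muscle sum, with r = -0.65 (permutation p = 0.0229, adjusted 0.457) and rho = -0.55 (permutation p = 0.0678, adjusted 0.567). Within the groups r was 0.14 in control and -0.66 in treated animals. Without treated animals 1 and 2, r was -0.39 over the remaining 10 animals. The value thus depended in part on these animals, which had the lowest marker sums. The r over all 12 animals also includes the difference between the diets, which was known when TMEM206 was chosen. With group means subtracted, r was -0.39 (permutation p = 0.257, adjusted 0.80). KCNK5 was lower where the fibroblast sum was high, with r = -0.65 (permutation p = 0.0222, adjusted 0.457) and rho = -0.71 (permutation p = 0.0121, adjusted 0.552), and r was -0.52 without treated animals 1 and 2. KCNK6 was lower where the endothelial sum was high, with r = -0.65 (permutation p = 0.0254, adjusted 0.457) and rho = -0.61 (permutation p = 0.0400, adjusted 0.552), and r was -0.48 without treated animal 1 and control animal 5. Within the groups r was -0.44 and -0.86 for KCNK5 and -0.79 and -0.58 for KCNK6, in control and treated animals, respectively. Against the leukocyte sum GPR65 had r = 0.05, and against the endothelial sum GPR4 had r = 0.47, but both genes are too sparse for these values to be read.

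**Figure D5:**
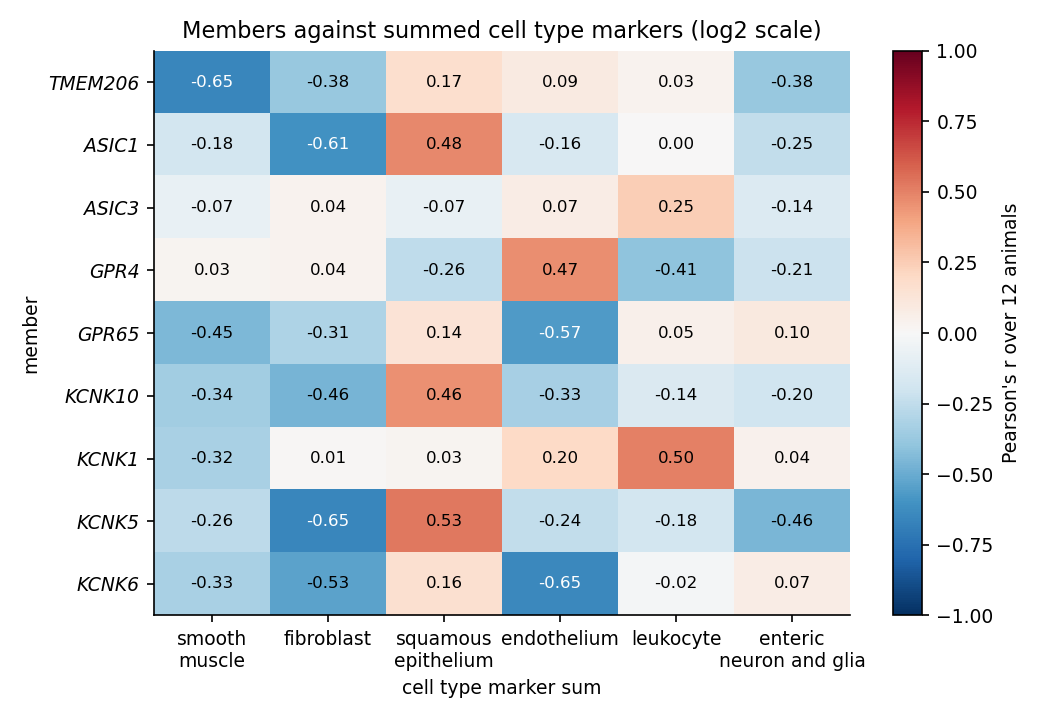
Pearson's r between the log2 FPKM of each of the 9 members (rows) and the log2 summed markers of 6 cell types (columns), over 12 animals, from blue (-1) to red (1). The darkest cells are TMEM206 against smooth muscle, KCNK5 against fibroblast and KCNK6 against endothelium, each with r = -0.65, and no cell passed an adjusted p below 0.05.

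The members above 0 in every animal were also compared with each other, in 15 pairs, after the group means were subtracted. None passed an adjusted p below 0.05. The smallest unadjusted permutation p was that of ASIC1 and KCNK5, with r = 0.65 (permutation p = 0.0215, adjusted 0.277) and rho = 0.70 (permutation p = 0.0186, adjusted 0.279), and r was 0.57 without treated animal 6 and control animal 6. Within the groups this r was 0.47 in control and 0.89 in treated animals. TMEM206 and KCNK10, the members with the fewest overlapping animals between the diets, had r = -0.18 with each other with a permutation p = 0.601 (adjusted 0.693), rho = -0.06 (permutation p = 0.870, adjusted 0.906) and r = 0.24 without control animal 4 and treated animal 6.

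For each tested member, the genes whose pattern was most like it were sought among 16450 genes, by Pearson's r over the 12 animals after the group means were subtracted. These values are descriptions, since the genes share libraries and depth. TMEM206 was closest to BACE1, the beta-secretase, and ZSCAN29, each with r = 0.90. KCNK5 was closest to the kinase gene STK24 (r = 0.97), followed by UVSSA and ZDHHC5 (both r = 0.97), and KCNK6 was closest to ATP10B (r = 0.96), a lipid flippase, ahead of MTMR4 and CTSA (both r = 0.94). KCNK1 was closest to LOC112578010 (r = 0.97) and to the cytokine gene IL26 (r = 0.94). ASIC1 was closest to ZKSCAN1 (r = 0.94), KCNK10 to LOC112584692 (r = 0.905), and GPR65 to PRRG1 (r = 0.89), with the reservation that GPR65 had 0 to 7 reads. The unadjusted diet p of the closest gene, such as 0.946 for BACE1, was not below 0.05 for any of these.

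The wider pathways were described with 6 lists of 82 genes, of which 79 were in the table and 54 were tested. None passed the adjusted or the unadjusted threshold in limma, and 26 of the 54 had a higher mean in the treated group, against 50.3% of all genes. Among the other proton-gated channels and proton channels, 3 of 12 listed genes were tested. The heat- and osmo-sensitive cation channel TRPV4 had a median of 4.89 FPKM, the lysosomal proton channel TMEM175 had 2.91 FPKM, and the proton channel OTOP3 had 0.936 FPKM. Their log2 differences were -0.0051 (SE 0.40), 0.34 (SE 0.28) and -0.23 (SE 0.28), respectively. TRPV4 was thus read at a higher level than TMEM206, whereas ASIC2, ASIC4, ASIC5 and TRPV1 had at most 5 reads in any animal.

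Of the other proton-sensing receptors, GPR132 had a median of 0.325 FPKM, above those of GPR65 and GPR4. The kinase PTK2B, which is activated by acid in kidney cells, had 4.48 FPKM. Their log2 differences were -0.18 (SE 0.40) and 0.0090 (SE 0.24), respectively. Downstream of the receptors, 27 of 34 listed genes of G protein and cyclic AMP signalling were tested, with a median log2 difference of 0.0073. The most abundant were the small GTPase RHOA at 81.8 FPKM and the protein kinase A subunits PRKAR2A and PRKAR1A at 50.4 and 38.2 FPKM. These genes were well covered by reads, unlike GPR4 and GPR65.

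Among 10 other chloride channel genes, 9 were tested, with a median log2 difference of 0.03. CLCN3, an endosomal chloride-proton exchanger, had 44.7 FPKM, LRRC8A, the obligatory subunit of the volume-regulated anion channel, had 11.1 FPKM, and ANO6, a scramblase and chloride channel, had 10.1 FPKM, all above TMEM206. Of the 11 regulators of acid-sensing and two-pore channels, 10 were tested, with a median log2 difference of -0.02. ARF6, which directs the recycling of TWIK-1, had 74.5 FPKM, and the adaptor YWHAB had 65.9 FPKM. In the list of other two-pore channels 2 genes were tested, and their median log2 difference was -0.0069: KCNK7 with a log2 difference of 0.06 (SE 0.15) and KCNK9 with -0.07 (SE 0.38).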

How the data were processed

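RNA-seq was carried out on the ruminal wall of 12 buffaloes, 6 per diet, with 1 stranded total RNA library each. Per the labels and the methods, the authors trimmed reads with Trimmomatic 0.39, aligned them to UOA_WB_1 with STAR 2.5.2b and summarised them to gene counts with featureCounts 2.0.0. The authors deposited FPKM values for 16 columns, of which 12 matched the sample labels and 4 were not used here. The gene lengths behind the FPKM were not given in the sources used here.

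Whole reads were worked out from the FPKM, since the values of a gene are multiples of what 1 read is worth (tolerance 0.02). This gave at least 99.999% of the fragments of each animal. For a gene above 0 in 1 animal only, such as ASIC2, ASIC3 or KCNK17, the lowest number of reads that fits was taken. Read floors cover counting error only.

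Genes that reached 0.1 FPKM in 6 or more animals were tested on log2(FPKM + 0.01) with limma 3.58.1 in R 4.3.3 (variance trend), and p-values were adjusted by Benjamini-Hochberg across the tested genes. For genes with values near 0, a log2 difference on this scale depends on the pseudocount and can be too large or too small. Correlations used 100000 permutations and were two-sided, as were all tests. The named genes were the 9 members, the 3 most abundant genes of each list (some are not reported here) and any list gene with an unadjusted p below 0.05, and the 3 genes most like each tested member. The members, lists and tests were chosen with earlier results of these data known. The alternatives were other pseudocounts, filters, scalings and variance models, voom on reads, a replicate block, a smooth muscle covariate, and leaving out each animal.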

Additional observations from a re-analysis of the deposited data

Results flagged for a closer look

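In 29 groups of 6 values (members and marker sums by diet), 3 values stood apart from the other 5 by Dixon's 95% critical value. For continuous, normally spread values chance gives about 1 in 20. That rate does not hold for genes with mostly 0 reads, such as ASIC3 and GPR4. The ASIC3 value of control animal 4, 0.0983 FPKM, was the only one above 0 in its group. The GPR4 value of treated animal 6, 0.107 FPKM, rested on 4 reads, with a gap of 0.735 of the group's range. The summed enteric neuron and glia markers of control animal 6, 15.7 FPKM, had a gap of 0.746 of the range, and in this list 3 of the 7 genes in the table were at 0 in all animals.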

How the results depend on the processing

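No gene passed an adjusted p below 0.05 in limma under any of the 22 alternatives, each animal left out included. The number of genes with an unadjusted p below 0.05 was 301, and it became 562 with all 22972 genes above 0, 161 with at least 40 scaled reads in 1 animal and 464 with the replicate block, and 274 to 461 when 1 animal was left out, the highest without treated animal 6. Fewer or more genes were tested under both filters, and for the block the cause was not tested. The label numbers were not taken to pair the animals, by a rule that every same-numbered pair should correlate over 0.1. The correlation of same-numbered animals across the diets was between -0.03 and 0.22, with 3 of 6 over 0.1. Its mean was 0.09, against -0.02 for animals with other numbers. Each animal had 6 possible partners in the other group, and 6 of 12 animals correlated best with their own number. Whether the numbers mark a shared origin was not tested. The sample titles carry other numbers, of which 4 are shared, with correlations between -0.04 and 0.11. The number of members with an unadjusted p below 0.05 was 2, and it became 3, with KCNK1, under the replicate block and without control animal 4, treated animal 3 or treated animal 5.

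TMEM206 ranged from 0.47 to 0.63 under the other settings and from 0.55 to 0.71 with 1 animal left out, and KCNK10 from 0.41 to 0.92 and from 0.67 to 1.04. The lowest value of both came with a pseudocount of 1. The log2 differences of these genes and of ASIC1, KCNK1, KCNK5 and KCNK6 moved by less than 1 within-group SD in all 22 alternatives, which were not read for GPR65, GPR4 and ASIC3. For most alternatives this was fixed in advance, so no stability is read from it. Leaving out 1 of 6 animals cannot move a group mean that far. The other filters, the robust variance model and the replicate block do not change the log2 difference at all. The count of list genes with an unadjusted p below 0.05 was 0, became 1 with the smooth muscle covariate (PLCB4, log2 difference 0.67) and was 0 to 1 with 1 animal left out (PLCB1, -0.86, without control animal 5). The order of levels kept 6 differing pairs except in control animals alone, where 0 passed. With 6 animals the smallest p of the exact test is 0.0313, so that fewer than 6 such pairs cannot pass the adjustment over 8. No relation with marker sums passed with standardized markers or with group means subtracted. Depth limits ASIC3, GPR4 and GPR65.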
